A study of Arabidopsis thaliana with 35 samples.

Results

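The 10 genes described here belong to the phosphate starvation response of Arabidopsis and were taken by a rule that uses no measured value, although earlier results of these data were known when it was set, out of 32833 genes with a read count in every library. They are IPS1 (AT3G09922), AT4 (AT5G03545), SPX1 (AT5G20150), SPX2 (AT2G26660), SPX3 (AT2G45130), PHT1;1 (AT5G43350), PHT1;4 (AT2G38940), PHO1 (AT3G23430), PHO2 (AT2G33770) and SQD2 (AT5G01220). On the TAIR10.1 genome PHT1;1 lies at chr5:17399769-17402158 (minus strand, 3 exons), PHT1;4 at chr2:16257157-16260253 (plus, 2 exons), SPX1 at chr5:6802282-6803655 (plus, 3 exons), PHO1 at chr3:8387398-8393467 (minus, 15 exons), PHO2 at chr2:14277558-14283113 (minus, 9 exons) and SQD2 at chr5:86543-90117 (minus, 12 exons). SPX2 lies at chr2:11338752-11340950 and SPX3 at chr2:18606410-18607853 (both plus, 3 exons), and IPS1 at chr3:3050989-3051530 and AT4 at chr5:894582-895517 have 1 exon each on the plus strand. None overlaps another annotated gene. They were measured in 35 RNA-seq libraries of whole 7-d-old seedlings, each a pool of 5 to 6 seedlings. The genotypes were wild type (WT), er XVE:ER, an er mutant that carries an estradiol-switched ER transgene, and XVE:EPFL4, a wild type that carries an EPFL4 transgene of the same kind. XVE is an activator protein that needs estradiol to switch on its target promoter, and the 35S promoter that drives it in the ER line is active in most tissues. Seedlings of each genotype were uninduced or had spent 3 h or 8 h on 5 mM 17-β estradiol, as the labels state it, which gives 9 conditions of 4 libraries each, except er XVE:ER at 3 h with 3 (replicates 1, 2 and 4). The uninduced seedlings are given as 0 h in the labels and as mock plates for 3 h in the methods of the study. No condition withheld phosphate as far as the labels and methods state, so the values describe these genes in seedlings on MS medium. The question the samples address is what ER and EPFL4 induction change, and the WT libraries give the background of estradiol, transfer and time of day, which cannot be told apart.

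Plants that run short of phosphate switch on a set of genes through the MYB factor PHR1 and its relatives, which bind a short DNA element called P1BS. SPX proteins sense inositol pyrophosphates and hold PHR1 back when phosphate is plentiful. PHT1 proteins take phosphate up at the root surface and PHO1 loads it into the xylem, while the ubiquitin-conjugating enzyme PHO2 lowers the amount of both kinds of protein. Starved plants make the microRNA miR399, which cuts the PHO2 transcript, and the transcripts IPS1 and AT4 bind miR399 without being cut, so that it is held away from PHO2. SQD2 makes sulfolipid, which can stand in for phospholipid in membranes.

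The sequences behind this circuit are shown because 3 of the 10 genes meet in it, and they come from the TAIR10.1 genome and its RefSeq annotation. The mature miR399 forms annotated at 6 loci, for MIR399C that of the 3′ arm, share the seed (bases 2 to 8, in capitals) and differ only outside it. Those of MIR399B and MIR399C are identical.
MIR399A: uGCCAAAGgagauuugcccug
MIR399B: uGCCAAAGgagaguugcccug
MIR399D: uGCCAAAGgagauuugccccg
MIR399E: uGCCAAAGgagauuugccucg
MIR399F: uGCCAAAGgagauuugcccgg
A search of the PHO2 transcript found 5 uninterrupted sites with at most 1 mismatch and at most 2 G-U pairs to the best-matching form, all in the 5′ untranslated part of the annotated transcript. The bases that face the seed are in capitals, and all 5 sites hold the same 7 bases there.
PHO2 chr2:14282106-14282126, minus strand: uagggcaaaucuuCUUUGGCa
PHO2 chr2:14281973-14281993, minus strand: uagggcauaucucCUUUGGCa
PHO2 chr2:14281884-14281904, minus strand: uugggcaaaucucCUUUGGCa
PHO2 chr2:14281827-14281847, minus strand: ucgagcaaaucucCUUUGGCa
PHO2 chr2:14281770-14281790, minus strand: uagagcaaaucucCUUUGGCa
IPS1 and AT4 each hold 1 site that pairs with miR399 only when 3 bases (in capitals) are left unpaired between the bases that face miRNA positions 10 and 11. Each has 1 mismatch and 2 G-U pairs to MIR399B outside the unpaired bases, and each lies in a stretch that the annotation marks as coding.
IPS1 chr3:3051224-3051247, plus strand: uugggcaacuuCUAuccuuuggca
AT4 chr5:895149-895172, plus strand: uugggcaacuuCGAuccuuuggca
No contiguous site was found in either transcript under the same rule. Mature microRNAs were not measured by these mRNA libraries. The counts of the 7 precursor genes searched for (MIR399A to MIR399F and MIR827A) summed to 0 to 0.395 CPM per library (CPM, the count of a gene scaled to the size of its library), and none passed the filter on low counts.

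The P1BS element was searched as GNATATNC, which reads the same on both strands. It was present in the 1000 bases before the annotated start of 7 of the 10 genes (IPS1, AT4, SPX1, SPX3, PHT1;1, PHO2 and SQD2), against 20.1% of 32548 genes matched to the annotation. In the 250 bases before the start it was present for 2 of 10 (AT4 and SPX3), against 5.43% of those genes. A match is a run of letters, not a bound site. SPX2, PHT1;4 and PHO1 had no match in the longer window. The matches of 4 genes called below are shown with 10 bases on either side, with the element in capitals.
PHT1;1 chr5:17402927-17402954, minus strand: atgttctcgcGAATATCCtatgtttttc
PHT1;1 chr5:17402909-17402936, minus strand: tatgtttttcGAATATGCttttttaaaa
SPX1 chr5:6801537-6801564, plus strand: ttcctatcaaGAATATTCcatggaatcc
PHO2 chr2:14283622-14283649, minus strand: acgaattaacGTATATCCtttttttttt
SQD2 chr5:90440-90467, minus strand: tatgtgaagcGAATATTCattggaatag
The PHT1;1 matches began 786 and 768 bases before the start of the gene, the SPX1 match 735 bases, the PHO2 match 526 bases and the SQD2 match 340 bases before it.

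The libraries had total counts of 18224765 to 25089853 (median 20657563), and 20926 genes passed the filter on low counts, among them all 10 response genes. The line checks of induction followed the labels, with ER at 44.5 to 68.5 CPM in uninduced er XVE:ER, 268 to 454 CPM at 3 h and 725 to 1552 CPM at 8 h, and EPFL4 at 1.36 to 3.40, 982 to 1724 and 810 to 2973 CPM in XVE:EPFL4. Uninduced WT had ER at 68.1 to 84.1 CPM, a range that overlaps that of uninduced er XVE:ER, so the ER count is no check of the er mutation. By correlation of log2 CPM, 4 libraries were closest to a library of another condition: er XVE:ER uninduced replicate 4, WT 3 h replicate 4, er XVE:ER 8 h replicate 1 and XVE:EPFL4 8 h replicate 1. Only the first was closest to a library of another time. Markers of time and tissue also moved. Of 6 clock genes 4, 3 and 4 were called at 3 h in WT, er XVE:ER and XVE:EPFL4, and 5 were called in each genotype at 8 h. Of 8 tested root genes (9 listed, with the endodermal gene ESB1 at 0 to 0.375 CPM) none was called at 3 h in any genotype by edgeR or DESeq2 (3, 1 and 0 at an unadjusted p under 0.05 in WT, er XVE:ER and XVE:EPFL4), while 3, 3 and 7 were lower at 8 h. Summed over the 9 genes, the root level was 62.3 to 96.9, 84.2 to 90.6 and 66.9 to 93.7 CPM in the uninduced libraries of the 3 genotypes and 54.7 to 112, 50.9 to 89.4 and 65.5 to 79.6 CPM at 3 h. Of 5 leaf genes 2 in WT, 3 in XVE:EPFL4 and, by edgeR, 0 in er XVE:ER were lower at 3 h (1 at an unadjusted p under 0.05 and 1 by DESeq2 in the last), and 1 was lower in each genotype at 8 h, when 1 was also higher in er XVE:ER. In such pools fewer cells of a kind and less RNA per cell cannot be told apart.

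Per length, the genes spanned more than 2 orders of magnitude. By the median of the condition means PHT1;1 was the highest, with means of 34.8 to 115 CPM per kb of exon, although PHO2 was above it in uninduced er XVE:ER (39.1 against 34.8) and uninduced XVE:EPFL4 (46.9 against 42.5). PHO2 (28.4 to 46.9), SQD2 (25.1 to 42.0) and PHO1 (19.6 to 30.5) came next, each range overlapping the one above it. SPX1 (3.73 to 24.6), SPX2 (12.4 to 14.9), PHT1;4 (7.57 to 18.0) and AT4 (9.31 to 22.2) overlapped in their ranges, so that no order holds among them. IPS1 (0.486 to 2.14 CPM per kb) and SPX3 (0.114 to 0.343) were far below, with 0 to 68 and 0 to 15 counts per library.

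**Figure D1:**
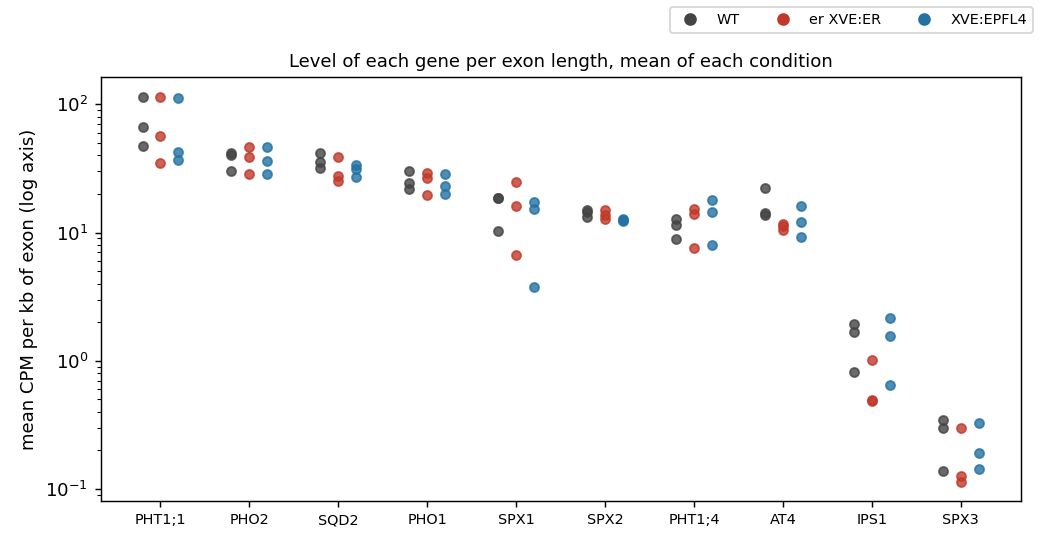
Mean level of each gene in each condition, in CPM per kb of annotated exon on a log axis, with the 3 times of a genotype as 3 points of 1 colour. PHT1;1 reaches 115 CPM per kb in WT at 3 h, whereas SPX3 stays at or below 0.343 in all 9 conditions.

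Each adjusted p below comes from a quasi-likelihood test in edgeR, fitted to all 35 libraries and adjusted over the 20926 genes by the Benjamini-Hochberg method, and a gene was called where it was under 0.05. Changes are log2 fold changes, and their SE was obtained from the F statistic of the same fit. Single genes were also compared by an exact two-sided permutation test of mean log2 CPM, whose smallest possible p is 0.0286 for 4 against 4 and for 4 against 3 libraries.

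The high-affinity transporter gene PHT1;1, which carries much of the phosphate uptake of the root, rose at 3 h in all 3 genotypes and was lower again at 8 h than at 3 h. Uninduced WT libraries had 76.4, 106, 101 and 96.2 CPM, and the WT libraries at 3 h had 218, 276, 288 and 147 CPM. The er XVE:ER values were 70.9, 72.9, 81.2 and 55.2 CPM uninduced and 242.5, 249.5 and 202 CPM at 3 h. In XVE:EPFL4 they were 92.6, 104, 61.6 and 83.5 CPM uninduced and 234, 240.4, 232 and 198 CPM at 3 h. In each genotype every 3 h library lay above every uninduced library, and the lowest 3 h value of the whole set was WT replicate 4. PHT1;1 rose by 1.29 on the log2 scale in WT (SE 0.26, adjusted p 0.000571), by 1.72 in er XVE:ER (SE 0.28, adjusted p 7.47e-05) and by 1.40 in XVE:EPFL4 (SE 0.26, adjusted p 0.000342). The exact two-sided permutation p was 0.0286, the smallest possible, in each genotype. It was the only 1 of the 10 genes called in WT at 3 h, a comparison that called 20.8% of the genes tested (11.9% higher, 8.92% lower). Without WT 3 h replicate 4 and er XVE:ER uninduced replicate 4 the changes were 1.46 in WT and 1.62 in er XVE:ER (adjusted p 0.000107 and 0.000155).

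**Figure D2:**
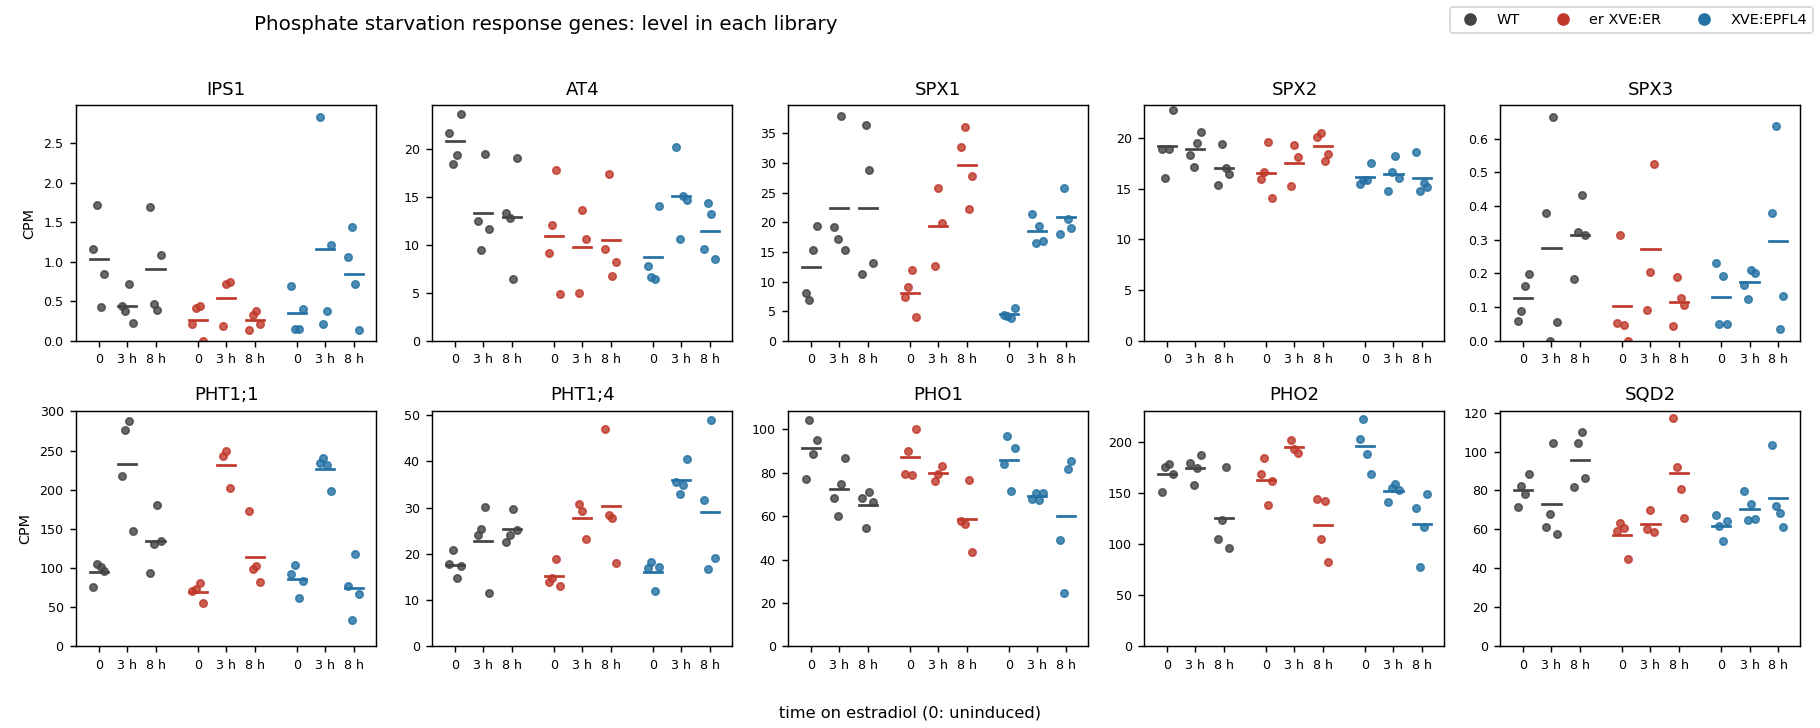
CPM of each of the 10 genes in every library (points) with the mean of each condition (bar), by time on estradiol, where 0 stands for uninduced. PHT1;1 rises at 3 h in all 3 genotypes, whereas SPX2 stays between 14.1 and 22.8 CPM in all 35 libraries.

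At 8 h PHT1;1 was at 94.3, 131, 181 and 134 CPM in WT, 173, 98.3, 102 and 82.2 CPM in er XVE:ER and 77.7, 34.1, 118 and 66.9 CPM in XVE:EPFL4. Of the 3 genotypes, only er XVE:ER had all its 8 h libraries above its uninduced ones, with replicate 1 the highest at 173 CPM. Against 3 h the log2 change was -1.61 in XVE:EPFL4 (SE 0.26, adjusted p 4.14e-05) and -1.02 in er XVE:ER (SE 0.28, adjusted p 0.00783). In WT it was -0.78 (SE 0.26, adjusted p 0.0260), a call that was lost without any 1 of 5 of the 8 libraries, and these were WT 3 h replicates 2 and 3 and WT 8 h replicates 1, 2 and 4 (adjusted p up to 0.0967). Against uninduced seedlings the 8 h change was 0.70 in er XVE:ER (SE 0.26, adjusted p 0.0387), 0.51 in WT (SE 0.26, adjusted p 0.127) and -0.21 in XVE:EPFL4 (SE 0.26, adjusted p 0.560). The er XVE:ER call rested on replicate 1 at 8 h, without which the change was 0.43 (adjusted p 0.224), and it was also lost without uninduced replicate 1, 2 or 4 and in the fit on those 2 groups alone. In XVE:EPFL4 replicate 2 had the lowest PHT1;1 level at 8 h (34.1 CPM) and also the lowest sum of the 9 root genes, at 16.6 CPM where its 3 fellow libraries had 36.0 to 43.7 CPM, with 66.9 to 93.7 CPM uninduced. Without that library the 8 h change against 3 h was -1.37 (adjusted p 0.000212). The library lowest in PHT1;1 was also lowest in the root sum in WT at 8 h (replicate 1, 44.2 CPM). The same held for replicate 4 of er XVE:ER and XVE:EPFL4 at 3 h (50.9 and 65.5 CPM). It did not hold in WT at 3 h, where replicate 4 had the highest root sum, 112 CPM. Nor did it in er XVE:ER at 8 h, with replicate 4 at 53.3 CPM and replicate 2 lowest at 35.1 CPM. Among uninduced libraries it held in WT (replicate 1, 62.3 CPM) and failed in both transgenic lines. There er XVE:ER replicate 4 and XVE:EPFL4 replicate 3, lowest in PHT1;1, had root sums of 88.2 and 74.0 CPM, against lowest sums of 84.2 and 66.9 CPM. The part of the root level in the result was not tested.

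**Figure D3:**
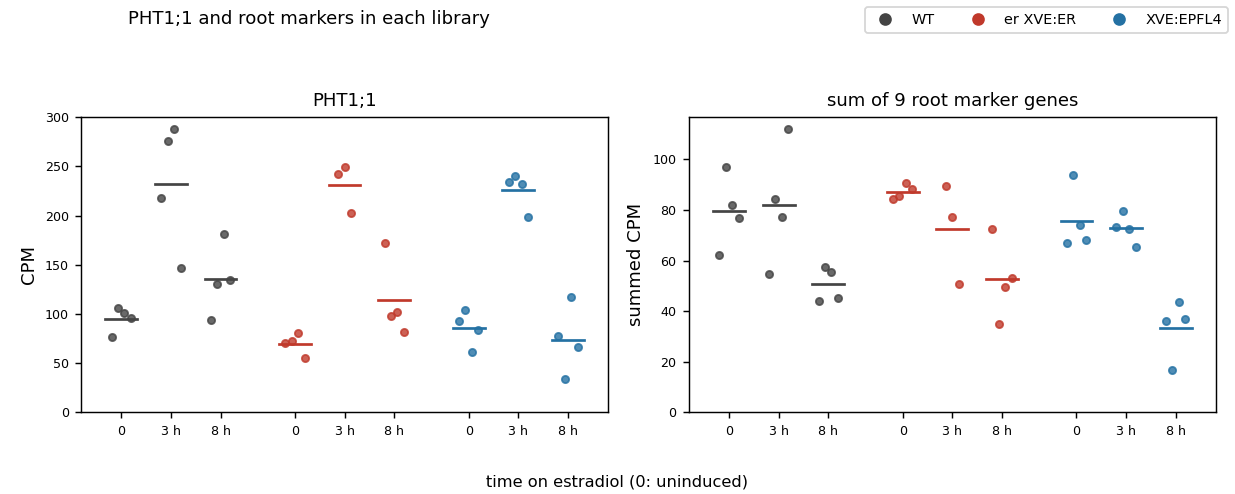
PHT1;1 (left, CPM) and the summed CPM of 9 root marker genes (right) in every library, with condition means as bars. The root sum of XVE:EPFL4 at 8 h lies between 16.6 and 43.7 CPM, below the 66.9 to 93.7 CPM of its uninduced libraries, while at 3 h PHT1;1 lies between 147 and 288 CPM and the root sum between 50.9 and 112 CPM.

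The annotated PHT1;1 transcript shares 23.1% of its 150-base words with its neighbour PHT1;2 and is 94.5% identical to it over 1798 aligned bases, so that reads could be split between them. PHT1;2 had 0 to 0.717 CPM in all libraries, and PHT1;3, which shares no 150-base word with PHT1;1, had 0 CPM in all.

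PHT1;4, a second uptake transporter gene, was called in both transgenic lines and not in WT. In XVE:EPFL4 it went from 17.0, 18.3, 12.0 and 17.2 CPM uninduced to 35.5, 32.9, 34.97 and 40.6 CPM at 3 h, with no overlap and a change of 1.16 (SE 0.27, adjusted p 0.00343). At 8 h the values were 31.7, 16.6, 49.0 and 19.1 CPM, which overlap the uninduced range, and the change was 0.86 (SE 0.27, adjusted p 0.0130). The er XVE:ER libraries went from 13.8, 14.8, 18.8 and 13.1 CPM to 30.9, 29.2 and 23.3 CPM at 3 h (0.87, SE 0.29, adjusted p 0.0416) and to 47.0, 28.5, 27.8 and 18.0 CPM at 8 h (1.00, SE 0.27, adjusted p 0.00528), and the lowest 8 h library overlapped the uninduced ones. The 3 h call of er XVE:ER was lost when any 1 of 6 of its 7 libraries was left out, all but uninduced replicate 3 (adjusted p up to 0.142). The 8 h call of er XVE:ER was lost without the 4 libraries closest to another condition (0.64, adjusted p 0.0557), and the XVE:EPFL4 8 h call was lost without uninduced replicate 3 or 8 h replicate 3 and in the fit on the 2 groups alone. Without 8 h replicate 3 (49.0 CPM) the XVE:EPFL4 change was 0.49 (adjusted p 0.128). In WT the values were 17.8, 20.8, 14.9 and 17.3 CPM uninduced, 24.2, 25.3, 30.2 and 11.6 CPM at 3 h and 22.6, 24.1, 29.7 and 25.2 CPM at 8 h, where no 8 h library overlapped an uninduced one. The WT changes were 0.37 (adjusted p 0.370) and 0.52 (adjusted p 0.138). The 8 h difference in WT had an exact two-sided permutation p of 0.0286, and the fit on those 2 groups alone called it (adjusted p 0.0110). At 3 h the XVE:EPFL4 libraries also all lay above those of WT (0.66, SE 0.27, adjusted p 0.206), and the responses of both genotypes differed by 0.79 (SE 0.38, adjusted p 0.601), neither of which was called. For er XVE:ER the 3 h response differed from that of WT by 0.51 (SE 0.40, adjusted p 0.993).

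SPX1, whose protein senses phosphate status in the nucleus, gave the largest changes among the called results of the 10 genes, and they were in XVE:EPFL4. Uninduced XVE:EPFL4 had 4.33, 4.19, 3.87 and 5.62 CPM, its 3 h libraries 21.4, 16.4, 19.4 and 16.8 CPM and its 8 h libraries 18.1, 25.7, 20.6 and 19.1 CPM. All 8 induced libraries were above all 4 uninduced ones. The rise was 2.04 at 3 h (SE 0.37, adjusted p 0.000240) and 2.21 at 8 h (SE 0.37, adjusted p 1.99e-05), both with the smallest exact two-sided permutation p of 0.0286, and both calls held in all 14 alternatives.

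The SPX1 level of er XVE:ER went from 7.40, 9.13, 11.9 and 3.98 CPM uninduced to 12.6, 25.7 and 19.9 CPM at 3 h and 32.7, 36.1, 22.2 and 27.9 CPM at 8 h. The change was 1.25 at 3 h (SE 0.37, adjusted p 0.0229) and 1.87 at 8 h (SE 0.35, adjusted p 0.000136), and neither time overlapped the uninduced libraries, whose highest value was 11.9 CPM. By the exact two-sided permutation test the 3 h difference had p = 0.0571. The 3 h call was lost without uninduced replicate 1 or 4 or 3 h replicate 2 or 4, at 1.03 (adjusted p 0.0653) without the uninduced replicate 4 that stands apart. It was also lost in the fit on the 2 groups alone, and in the fits without all the libraries that stand apart or are closest to another condition. In WT the values were 8.14, 6.92, 15.4 and 19.4 CPM uninduced, 19.3, 17.1, 38.0 and 15.3 CPM at 3 h and 11.3, 36.4, 28.7 and 13.2 CPM at 8 h, with groups that overlap. The WT changes were 0.85 at 3 h (SE 0.34, adjusted p 0.0797) and 0.84 at 8 h (SE 0.34, adjusted p 0.0560), neither of them called. Single libraries moved both values in either direction. Without uninduced replicate 4 the changes were 1.16 (adjusted p 0.0297) and 1.16 (adjusted p 0.0170), without WT 3 h replicate 3 the 3 h change was 0.47 (adjusted p 0.399), and without WT 8 h replicate 2 the 8 h change was 0.52 (adjusted p 0.276). Omitting WT 3 h replicate 4, or WT 8 h replicate 1 or 4, also gave a call at that time, and DESeq2 called the 8 h change (adjusted p 0.0406). The WT 8 h libraries also split as pairs. Replicates 1 and 4, with SPX1 at 11.3 and 13.2 CPM, had clock gene sums of 516 and 514 CPM. Replicates 2 and 3, with SPX1 at 36.4 and 28.7 CPM, had sums of 266 and 310 CPM. In er XVE:ER at 8 h, replicates 1 to 4 had clock gene sums of 329, 545, 583 and 365 CPM, and SPX1 was highest in replicate 2. In XVE:EPFL4 at 8 h the sums were 264, 435, 497 and 490 CPM, and SPX1 was lowest in replicate 1, which also had the lowest sum. The order seen in WT was thus not that of the other genotypes. The part of this split in the SPX1 values was not tested.

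Before induction SPX1 was lower in XVE:EPFL4 than in WT, at a log2 difference of -1.47 (SE 0.37, adjusted p 0.0326, exact two-sided permutation p 0.0286), with 3.87 to 5.62 CPM against 6.92 to 19.4 CPM. It was the only 1 of the 10 genes called in that comparison, where 1.89% of all genes were called. The call was lost without any 1 of WT replicates 3 and 4 and XVE:EPFL4 replicates 1, 2 and 3 (adjusted p up to 0.143). At 3 h and 8 h SPX1 differed from WT by -0.28 and -0.10 (adjusted p 0.742 and 0.919). The difference between the responses of XVE:EPFL4 and WT was 1.19 at 3 h (SE 0.50, adjusted p 0.501) and 1.37 at 8 h (SE 0.50, adjusted p 0.264), neither called, although both SPX1 responses of XVE:EPFL4 were.

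The related sensor genes behaved otherwise. SPX2 was between 14.1 and 22.8 CPM in all 35 libraries and was not called in any of the 19 comparisons, with condition means of 16.1 to 19.2 CPM. SPX3, which in starved plants is strongly induced, had 0 to 15 counts per library and was not called in any comparison either. Its changes against uninduced seedlings lay between 0.14 and 1.36 with SEs of 0.80 to 0.97, so that changes of this size were not detectable at this depth.

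The 2 miR399 decoy transcripts were not called in any comparison. AT4 was highest in uninduced WT, at 21.7, 18.4, 19.4 and 23.6 CPM, above the 7.79, 6.69, 6.39 and 14 CPM of uninduced XVE:EPFL4 and the 9.12, 12.1, 17.7 and 4.92 CPM of uninduced er XVE:ER. Neither line overlapped WT before induction. The differences were -1.25 for XVE:EPFL4 (SE 0.35, adjusted p 0.0590) and -0.92 for er XVE:ER (SE 0.35, adjusted p 0.435), and DESeq2 called the first (adjusted p 0.0178). At 3 h AT4 was at 12.4, 9.48, 19.5 and 11.7 CPM in WT and 20.2, 10.6, 15.1 and 14.7 CPM in XVE:EPFL4, with log2 changes of -0.64 (SE 0.35, adjusted p 0.197) and 0.80 (SE 0.35, adjusted p 0.137) that lay in opposite directions. The difference of the 3 h responses was 1.44 (SE 0.49, adjusted p 0.340). At 8 h AT4 lay at 6.46 to 19.0 CPM in WT, 6.77 to 17.3 CPM in er XVE:ER and 8.55 to 14.4 CPM in XVE:EPFL4, so that the genotypes overlapped. IPS1 had 0 to 68 counts per library, the most in XVE:EPFL4 at 3 h replicate 1 with 2.84 CPM, where replicates 2 to 4 had 0.208 to 1.21 CPM.

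PHO2 was called lower at 8 h than in uninduced seedlings in both transgenic lines, and the WT change lay just outside the threshold. The XVE:EPFL4 libraries had 204, 223, 188 and 169 CPM uninduced, 142, 155, 159 and 153 CPM at 3 h and 135, 78.0, 117 and 149.7 CPM at 8 h, with no overlap between uninduced and 8 h libraries. The 8 h change was -0.71 (SE 0.17, adjusted p 0.00158, exact two-sided permutation p 0.0286). The 3 h libraries did not overlap the uninduced ones either, at a change of -0.36 that was not called (SE 0.17, adjusted p 0.163, exact two-sided permutation p 0.0286). The fit on those 2 groups alone called it (adjusted p 0.0035). The er XVE:ER values of PHO2 were 168, 184, 139 and 162 CPM uninduced, 202, 194 and 189 CPM at 3 h and 144, 106, 143 and 82.8 CPM at 8 h. It fell by 0.46 on the log2 scale at 8 h against uninduced (SE 0.17, adjusted p 0.0392) and by 0.71 against 3 h (SE 0.18, adjusted p 0.00534), the latter without overlap. The first of these calls was lost without uninduced replicates 1, 2 or 4 or 8 h replicates 2 or 4. In WT PHO2 had 151, 176, 179 and 169 CPM uninduced, 179, 158, 175 and 187 CPM at 3 h and 106, 124, 176 and 96.8 CPM at 8 h. The 8 h change was -0.43 (adjusted p 0.0516) against uninduced and -0.48 against 3 h (SE 0.17, adjusted p 0.0401). DESeq2 called the first of these (adjusted p 0.0414), and without WT 8 h replicate 3 it was -0.62 (adjusted p 0.00471). The 8 h responses of er XVE:ER and WT differed by -0.03 (SE 0.24, adjusted p 0.983). The change against 3 h was lost as a call without WT 3 h replicates 1, 3 or 4 or WT 8 h replicates 1, 2 or 4, and WT 8 h replicate 3 overlapped the earlier times. The root gene sums were also lower at 8 h, at 44.2 to 57.6 CPM in WT, 35.1 to 72.6 CPM in er XVE:ER and 16.6 to 43.7 CPM in XVE:EPFL4, and their part in these values was not tested. As mature miR399 was not measured, these counts give no measure of its activity on the sites printed above.

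PHO1, the xylem-loading exporter, was called in the fit to all libraries only in er XVE:ER at 8 h, at 57.7, 56.5, 76.8 and 43.3 CPM against 79.5, 89.9, 78.9 and 99.97 CPM uninduced, without overlap, a change of -0.57 (SE 0.22, adjusted p 0.0436). The call was lost without any 1 of 7 of the 8 libraries, all but 8 h replicate 3, and in the fit on the 2 groups alone. The 8 h changes of the other genotypes were not called, at -0.49 in WT (adjusted p 0.0816) and -0.51 in XVE:EPFL4 (adjusted p 0.0617). The WT libraries did not overlap either, at 54.6 to 71.0 CPM at 8 h and 77.0 to 104 CPM uninduced (exact two-sided permutation p 0.0286). Nor did those of XVE:EPFL4 at 3 h and uninduced (-0.31, adjusted p 0.377, not called). Fits on the 2 groups alone called both of these changes (adjusted p 0.0161 and 0.00983). The 8 h libraries of XVE:EPFL4 were at 49.2, 24.6, 81.8 and 85.2 CPM, the lowest again being replicate 2, without which the change was -0.25 (adjusted p 0.254). DESeq2 called the XVE:EPFL4 change (adjusted p 0.0479), as did edgeR without uninduced replicate 3, 8 h replicate 3 or 8 h replicate 4 (down to -0.72, adjusted p 0.0119). SQD2 was also called only in er XVE:ER at 8 h, at 117, 92.2, 80.9 and 65.8 CPM against 59.0, 63.5, 60.8 and 44.7 CPM, again without overlap, a change of 0.64 (SE 0.17, adjusted p 0.00495). In WT it was 0.25 (adjusted p 0.266) and in XVE:EPFL4 0.30 (adjusted p 0.172). Without the 4 libraries closest to another condition the er XVE:ER change was 0.38 (adjusted p 0.0555). Before induction SQD2 was at 71.8, 82.5, 78.0 and 88.6 CPM in WT, above every uninduced library of er XVE:ER and of XVE:EPFL4 (67.5, 61.9, 53.9 and 64.2 CPM), at differences of -0.49 (SE 0.17, adjusted p 0.372) and -0.38 (SE 0.17, adjusted p 0.306).

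**Figure D4:**
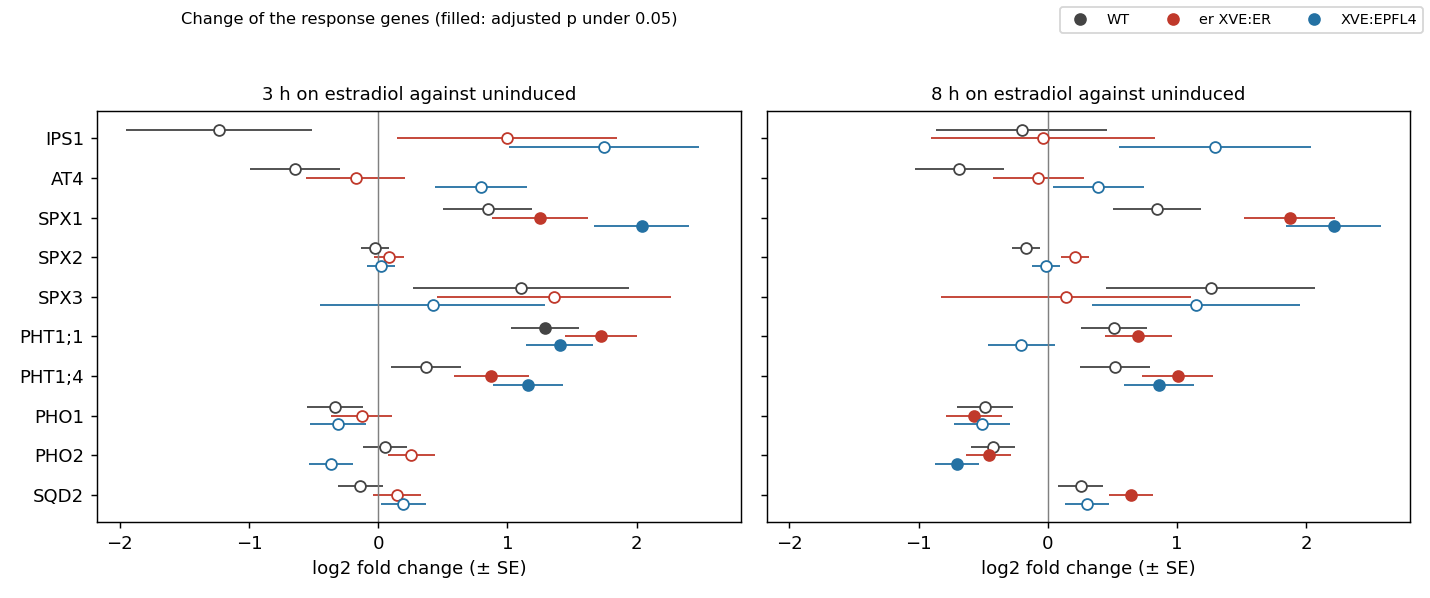
Log2 fold change of each gene with its SE at 3 h (left) and 8 h (right) against uninduced seedlings of the same genotype, with filled points for an adjusted p under 0.05 (edgeR). PHT1;1 is filled in all 3 genotypes at 3 h and SPX1 in both transgenic lines at both times, while no gene is filled in WT at 8 h.

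In number, 1 of the 10 genes was called in WT at 3 h and 0 at 8 h by edgeR (3 at an unadjusted p under 0.05, and 2 by DESeq2), while 34.5% of all genes passed at 8 h (18.3% up, 16.2% down). The er XVE:ER line had 3 calls at 3 h, all higher (13.6% of all genes, 7.4% up and 6.16% down). At 8 h it had 6, of which 4 were higher and 2 lower (31.4% of all genes, 16.3% up and 15.1% down). In XVE:EPFL4 3 were called at 3 h, all higher (14.2% of all genes, 7.55% higher and 6.65% lower), and 3 at 8 h, 2 higher and 1 lower (37.1% of all genes, 19.5% higher and 17.6% lower). Between 8 h and 3 h, 2 were called in WT (23.5% of all genes), 2 in er XVE:ER (21.7%) and 1 in XVE:EPFL4 (24.3%). All of these were lower at 8 h. The median log2 change of the 10 genes at 3 h was 0.01 in WT, 0.56 in er XVE:ER and 0.61 in XVE:EPFL4, and that of all genes was 0.00, -0.01 and 0.00. At 8 h it was 0.04, 0.18 and 0.35, against 0.00, -0.01 and 0.02 for all genes.

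Between genotypes, none of the 10 genes was called for er XVE:ER against WT by edgeR or DESeq2, when uninduced (3 at an unadjusted p under 0.05, 0.139% of all genes called), at 3 h (0 and 0.143%) or at 8 h (1 and 0.344%). In the uninduced comparison all 10 differences were below 0, with a median of -0.35 against 0.01 for all genes. In that condition replicate 4, a library closest to another condition, was the lowest of its group for 8 of the 10 genes (all but PHO1 and PHO2). For XVE:EPFL4 against WT, uninduced, 1 was called by edgeR, SPX1 (5 at an unadjusted p under 0.05, 1.89% of all genes called). There 8 of the 10 differences were below 0, with a median of -0.20 against -0.01 for all genes. None was called for XVE:EPFL4 against WT at 3 h by either tool (1 at an unadjusted p under 0.05, 1.46% of all genes called). At 8 h none was called by edgeR and 1, PHT1;1, by DESeq2 (1 at an unadjusted p under 0.05, 0.344% of all genes called). The differences of the responses gave 0 calls with both tools: for er XVE:ER at 3 h (0 at an unadjusted p under 0.05, 0.00478% of all genes called) and 8 h (2 and 0.0191%), and for XVE:EPFL4 at 3 h (4 and 0.0765%) and 8 h (2 and 0.478%). The 3 h response of PHT1;1 differed from that of WT by 0.43 in er XVE:ER (SE 0.38, adjusted p 0.993) and 0.11 in XVE:EPFL4 (SE 0.36, adjusted p 0.977). All the comparisons of one genotype over time share its uninduced libraries. Here and above, counts at an unadjusted p are not to be set against the shares of all genes called, which are at an adjusted p. The share of all genes at an unadjusted p under 0.05 was not taken.

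Other genes of phosphate homeostasis are given by their counts of calls, to be read against the 20.8%, 13.6% and 14.2% of all genes called at 3 h in WT, er XVE:ER and XVE:EPFL4 and the 34.5%, 31.4% and 37.1% called at 8 h. Of 22 regulators 2 were higher and 2 lower in WT at 3 h, which is under the share of all genes, and 4 and 7 at 8 h. The largest called rises among them were those of ZAT6, a zinc finger factor, at 3 h (1.92, SE 0.53, adjusted p 0.00904) and VIH2, which makes the inositol pyrophosphates that SPX proteins bind, at 8 h (2.47, SE 0.25, adjusted p 4.37e-09). The largest called falls were those of PHL2, a relative of PHR1, at 3 h (-0.42, SE 0.10, adjusted p 0.00317) and PHR1 itself at 8 h (-0.91, SE 0.07, adjusted p 1.38e-11). VIH2 was higher and PHR1 lower at 8 h in er XVE:ER (1.96 and -0.59) and XVE:EPFL4 (2.44 and -0.64) too. The transgenic lines had 2 higher and 1 lower (er XVE:ER) and 1 higher and 2 lower (XVE:EPFL4) at 3 h, and 5 and 6, and 4 and 5, at 8 h.

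Of 7 other transporter genes that were tested (13 listed), 2 were higher and 2 lower in WT at 3 h, and 1 and 3 at 8 h. PHT5;1, a vacuolar phosphate transporter, was the largest called rise at both times (0.62 and 0.56, adjusted p 0.00112 and 0.00149), and PHO1;H10, a relative of PHO1, the largest called fall (-2.08 and -4.56, adjusted p 0.00121 and 6.26e-08). At 3 h 2 were higher and 1 lower in er XVE:ER and 3 were higher in XVE:EPFL4, and at 8 h 2 and 3, and 1 and 3. Of 12 lipid genes tested (13 listed), 1 was higher and 2 lower in WT at 3 h, and 2 and 3 at 8 h. MGD3, a galactolipid synthase, rose at both times (1.85 and 2.45, adjusted p 0.0400 and 0.00312). Over all libraries MGD3 was at 0.232 to 8.26 CPM and PHO1;H10 at 0.0849 to 16.5 CPM, so that the lowest values of both were near 0. SQD1, the enzyme that precedes SQD2, was the largest called fall at 3 h (-0.72, adjusted p 0.0168) and DGD1 at 8 h (-1.19, adjusted p 4.07e-06). At 3 h 1 was lower in er XVE:ER, and in XVE:EPFL4 2 were higher and 1 lower. At 8 h 3 were higher and 3 lower in er XVE:ER, SQD1 among the former (0.58, adjusted p 0.0414), and 1 and 3 in XVE:EPFL4.

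Of 8 phosphatase and nuclease genes 3 were higher and 1 lower in WT at both times. RNS1, a ribonuclease that releases phosphate from RNA, was the largest called rise (5.38 at 3 h and 3.69 at 8 h, adjusted p 3.11e-08 and 4.71e-06), and PAP26, an acid phosphatase, the only fall (-0.24 and -0.25, adjusted p 0.0157 and 0.00581). At 3 h 2 were higher and 1 lower in er XVE:ER and 2 were higher in XVE:EPFL4, and at 8 h 1 and 2, and 1 and 1. RNS1 was higher at 3 h in er XVE:ER and XVE:EPFL4 as well (2.06 and 2.72) and was not called in either at 8 h (-0.00 and 0.99, adjusted p 1.00 and 0.114). Its level over all libraries was 0.0497 to 16.4 CPM, so that its lowest values were near 0.

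**Figure D5:**
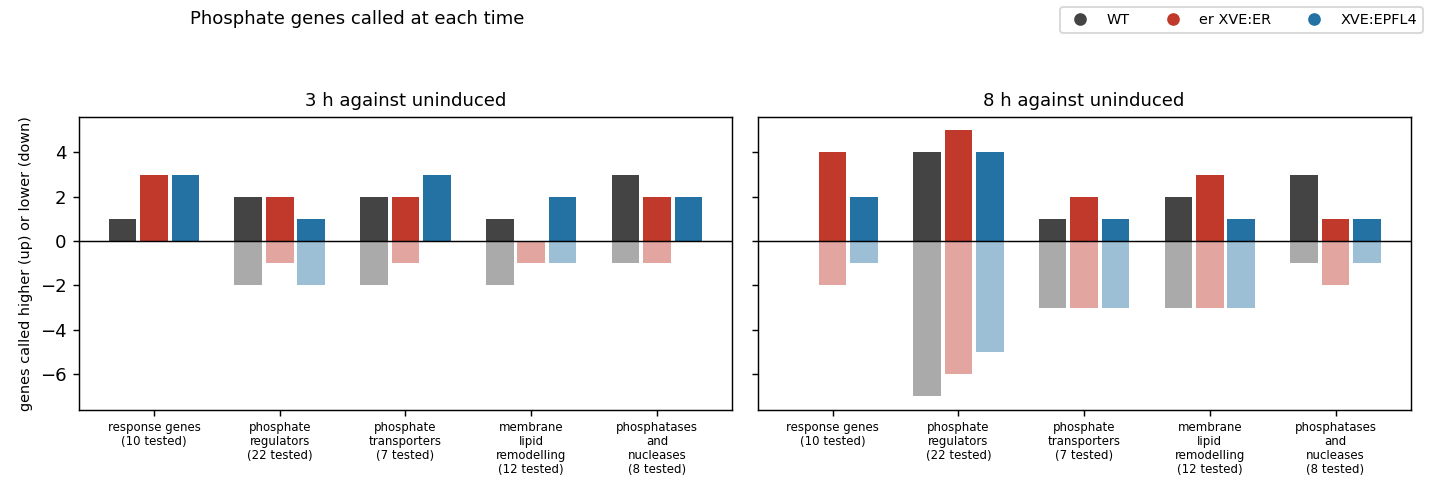
Number of genes called higher (dark bars, upward) or lower (pale bars, downward) at 3 h and 8 h against uninduced seedlings, for the 10 response genes and 4 lists of other phosphate genes, by genotype. Among the 22 regulators, 7 are lower in WT at 8 h and 4 are higher.

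Across the 35 libraries, PHT1;1 and PHT1;4 had a Pearson r of 0.637 in log2 CPM and 0.853 after the mean of each condition was subtracted, PHO1 and PHO2 0.736 and 0.63, SPX1 and SQD2 0.611 and 0.595, and SPX1 and SPX2 0.478 and 0.657. Among 18873 genes with a mean of at least 1 CPM, the genes whose levels were most like those of PHT1;1 were SULTR1;2, a sulfate uptake transporter (r = 0.948), AT1G05700 (0.943) and DUR3, a urea transporter (0.934). SPX1 was most like GTG1 (0.877), AT5G20790 (0.859) and TRANS11 (0.849). PHT1;4 was most like PHF1, which helps PHT1 proteins leave the endoplasmic reticulum (0.839), PFK7 (0.824) and AT1G64650 (0.813), and SQD2 was most like SQD1 (0.849), CLT2 (0.816) and EMB2761 (0.803). PHO1 was most like RAN1 (0.883), AT3G04490 (0.883) and PUM5 (0.875), and PHO2 most like ARF9 (0.880), DWA3 (0.874) and AT3G60070 (0.864). The best values were lower for AT4 (0.735 with the plastid gene ATCG00330, 0.680 with AT5G44575 and 0.619 with PHO1;H1) and SPX2 (0.648 with PME1, 0.621 with IREG3 and 0.604 with CYP71B36). These r describe shared libraries, time and depth and were not tested.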

How the data were processed

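The authors mapped 150-base paired-end reads to TAIR10 (EnsemblPlants release 58) with STAR 2.7.11a and deposited unnormalized read counts per gene. How strand, trimming and duplicate reads were handled is not given in the sources used here. Without strand, reads of overlapping genes cannot be told apart, but none of the 10 genes overlaps another annotated gene. Conditions came from the sample labels, and the methods call the replicates biological repeats. All 35 libraries were used.

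Counts were analysed in R 4.3.3 with edgeR 4.0.16 (filterByExpr with a minimum count of 10 and a minimum total of 15, TMM scaling, glmQLFit, glmQLFTest), with all libraries in 1 fit. The step was tested on simulated data. CPM used TMM factors, and 2 was the prior count for log2 CPM. Errors are over libraries, not over reads. The 10 genes and all gene lists were chosen with earlier results of these data known. The genes named were the 10, the largest called rise and fall of each phosphate list in WT at 3 h and 8 h, the 3 genes most like each response gene of at least 1 CPM, ER and EPFL4. SQD1 at 8 h was named after its value was seen.

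Exons, sites and upstream windows were read from TAIR10.1 and its RefSeq annotation with Python 3.11.15, which held 32548 of 32833 identifiers. MicroRNA sites scored at most 4, or 3 with a bulge (1 for a mismatch, 0.5 for a G-U pair). Alternatives were DESeq2 1.42.0, its size factors in edgeR, no filter except 1 count in total, fits on the compared groups alone, a replicate block, omission of single libraries, and omission of the 2 libraries that stand apart or, chosen after seeing the data, of all 4 closest to another condition.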

Additional observations from a re-analysis of the deposited data

Results flagged for a closer look

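One of 80 groups of 4 libraries held a value far from its fellows. SPX3 in er XVE:ER uninduced replicate 2 had 0.315 CPM, a count of 6, where the remaining 3 libraries had 0 to 0.0536 CPM, a count of at most 1. Chance alone places a value this far out in about 1 of 20 groups.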

How the results depend on the processing

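The number of the 10 genes called stayed within 1.5 times the main count in 257 of 304 alternatives, and no call of a response gene reversed its direction. Many of the comparisons had a main count of 0, and a 0 that stayed 0 is among the 257, so this number says little about the comparisons with calls. The counts in the rest of this paragraph are those that moved further than 1.5 times, and smaller moves are not listed. With no filter except 1 count, WT at 8 h against 3 h gave 1 call. With only the compared groups in the fit, 2 genes were called in WT at 3 h, 2 (PHT1;4 and PHO1) in WT at 8 h, 0 in WT at 8 h against 3 h, 3 in er XVE:ER at 8 h, 6 in XVE:EPFL4 at 3 h, 3 in uninduced XVE:EPFL4 against WT and 1, AT4, in the difference of the 3 h responses of XVE:EPFL4 and WT. Among the smaller moves of that fit, SPX1 was lost as a call in er XVE:ER at 3 h and PHT1;4 in XVE:EPFL4 at 8 h. DESeq2 called 2 in WT at 8 h, 2 in uninduced XVE:EPFL4 against WT and 1 in XVE:EPFL4 against WT at 8 h. Without er XVE:ER uninduced replicate 4 and WT 3 h replicate 4, the counts were 2 in WT at 3 h, 1 in WT at 8 h against 3 h and 3 in er XVE:ER at 8 h. Without the 4 libraries closest to another condition, an alternative chosen after seeing the data, they were 2 in WT at 3 h, 1 in WT at 8 h, 1 in WT at 8 h against 3 h, 2 in er XVE:ER at 8 h, 2 in uninduced XVE:EPFL4 against WT and 2 in XVE:EPFL4 against WT at 8 h. The cause was not tested. The share of all genes called was taken in the main fit only. The counts of the other fits, those without single libraries included, therefore have no share of their own to be read against.

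Leaving out each library in turn gave 1 to 2 calls in WT at 3 h, 0 to 1 in WT at 8 h, 0 to 2 in WT at 8 h against 3 h, 1 to 3 in er XVE:ER at 3 h, 3 to 6 in er XVE:ER at 8 h, 2 to 3 in er XVE:ER at 8 h against 3 h, 3 to 4 in XVE:EPFL4 at 8 h, 0 to 2 in uninduced XVE:EPFL4 against WT and 0 to 1 in XVE:EPFL4 against WT at 8 h. It left 3 calls in XVE:EPFL4 at 3 h and 1 in XVE:EPFL4 at 8 h against 3 h every time. Same-numbered libraries of different conditions did not deviate together (median r 0.03 over 136 pairs, 32 of them over 0.1, and 13 of 35 libraries closest to their own number), so the number was not taken to pair them. With it as a replicate block, the count in XVE:EPFL4 at 8 h was 4 in place of 3, PHO1 being added, and the other 18 comparisons kept their counts. The depth behind SPX3 was 0 to 15 counts per library, and behind IPS1 0 to 68.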
